A study of Bos taurus with 16 samples.

Results

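Molecular chaperones were followed in the bovine corpus luteum, the gland that forms on the ovary after ovulation and makes progesterone. The members were the array's non-control spots whose gene symbol begins with HSP, DNAJ, CCT and a number, PDIA or FKBP, or is TCP1, CALR or CANX. Where a gene had more than 1 spot, the brightest was used. This rule matched 59 spots of 56 genes among 6704 named genes on the array. Of the 56 genes, 48 are chaperones or co-chaperones, 31 of the cytosol, 13 of the endoplasmic reticulum (ER) and 4 of the mitochondrion. The other 8 carry the letters only in an older name (SDR42E1, RTCB, NOP16, WDR91, TRMT112, BABAM1 and TMEM208) or bind a chaperone (HSPBAP1). These 8 were all tested, and none passed the test in any comparison. A further 12 chaperones of the same families were on the array under other names, so the rule missed them, and those of the ER are described beside the members.

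Glands came from 16 Japanese Black cows in 4 groups of 4 animals each. The cyclic group was at days 10 to 12 of the estrous cycle, and the pregnant groups were at days 20 to 25, 40 to 45 and 150 to 160 of gestation, counted with the day of artificial insemination as day 1. No group carried a treatment or an allele, the cows' ages are not used here, and a pregnant gland is always an older gland, so pregnancy and age of the gland cannot be told apart. Ovaries were taken from a ranch herd minutes after exsanguination, and RNA of each gland was hybridised in 1 colour (Cy3) to a custom oligonucleotide array.

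Chaperones bind proteins that are not yet folded or have lost their fold. HSP70 proteins do so in cycles of ATP use that J proteins (the DNAJ genes) start, HSP90 finishes clients such as steroid receptors with the help of FKBP co-chaperones, the chaperonin CCT folds actin and tubulin inside its ring, and small heat shock proteins hold unfolded proteins without ATP. In the ER, HSP70 and HSP90 relatives, the lectins calnexin and calreticulin, disulfide isomerases and FKBPs fold proteins bound for membranes and for secretion, which in the young corpus luteum include the peptide hormone oxytocin.

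Values are log2 of the scanner's processed signal minus the array's 75th percentile of that signal, so 0 is the 75th percentile and 1 unit is a doubling. They compare cows for a given probe and not probes with each other. Between 71.9% and 79.6% of an array's probes read well above background, with a 75th percentile of signal from 2020.5 to 4288.4 units. Of the 2 slides used, each held 2 cows of every group. A group had the same positions on both slides, and the effects of position and of group cannot be told apart. All 8 luteal steroidogenic markers, among them STAR, CYP11A1 and HSD3B1, were well above background on every array, with a summed linear level of 356 to 637 in cyclic, 414 to 583 at days 20-25, 424 to 615 at days 40-45 and 453 to 514 at days 150-160. OXT, which encodes oxytocin, was lower at days 150-160 by a log2 change of -7.97 (limma adjusted p = 3.44e-07). At that stage 2 of 10 endothelial and 1 of 5 smooth muscle and pericyte markers were higher, beside 4.66% of all probes. Lower were 3 of 6 fibroblast and matrix, 2 of 6 macrophage, 2 of 5 granulocyte and 1 of 2 plasma and B cell markers. Of all probes, 3.32% were lower. No marker of T and NK lymphocytes (9 tested), red blood cells (2) or follicle cells (6) was called. Endothelial markers summed to 12.3 to 19.9 in cyclic glands and 19.3 to 34.9 at days 150-160, and fibroblast and matrix markers to 47.1 to 73.4 and 31.2 to 43.6. The markers C1QA, CD4, HBB and SLC4A1 were not well above background on any array. The part of these cell types in any chaperone result was not tested, and in whole tissue more RNA per cell and more cells of a type cannot be told apart.

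Of the 48 chaperones, 46 could be tested, that is, were well above background on at least 3 of 4 arrays of a group, which is 95.8% against 78.5% of all probes. PDIA2, a disulfide isomerase, and DNAJB13, a J protein, were not well above background on any array. For 45 of the 46 the probe was above background in all 16 cows. The exception was HSPB3. Few chaperones differed between stages. At days 20-25 none of 46 passed the test against cyclic cows (limma, adjusted p under 0.05), where 0.293% of all probes passed. An unadjusted limma p under 0.05 was found for 5 of 46, where 14.1% of all probes had one. At days 40-45, 1 of 46 passed and was lower, HSPB8, beside 1.23% of all probes, or 0.695% counted as lower. At days 150-160, 3 of 46 passed, which is 6.52% beside 7.98% of all probes. HSPA1A was the 1 higher call, where 4.66% of all probes were higher, and HSPB8 and HSPA14 were the 2 lower calls, where 3.32% of all probes were lower. The share called among chaperones was thus near that of the array as a whole. The 3 comparisons share the cyclic cows.

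The sizes of change were also like those of the array. Against cyclic cows the median log2 change of the 46 was -0.08 at days 20-25, 0.12 at days 40-45 and 0.02 at days 150-160, beside 0.05, 0.01 and 0.03 over all probes. A change smaller than 0.5 in either direction was found for 39, 43 and 34 of the 46, which is 84.8%, 93.5% and 73.9%, beside 81.4%, 83.0% and 75.8% of all probes. The 4 cows of the pregnant group lay wholly above or below the 4 cyclic cows for 6.67%, 9.09% and 8.89% of the chaperones with all 8 values, where 7.43%, 9.68% and 11.7% of all such probes did. By compartment, the median at days 150-160 was -0.05 over 30 cytosolic members, 0.21 over 12 of the ER and -0.17 over 4 of the mitochondrion. With 1 cow left out these medians ran from -0.10 to 0.05, from 0.13 to 0.25 and from -0.21 to -0.08. The cytosolic median turned positive without cyclic cow 2 (0.01) or cow 1 of days 150-160 (0.05). Within slide 2 alone, the ER median was slightly negative. None of the ER or mitochondrial members passed the test at any stage.

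**Figure D1:**
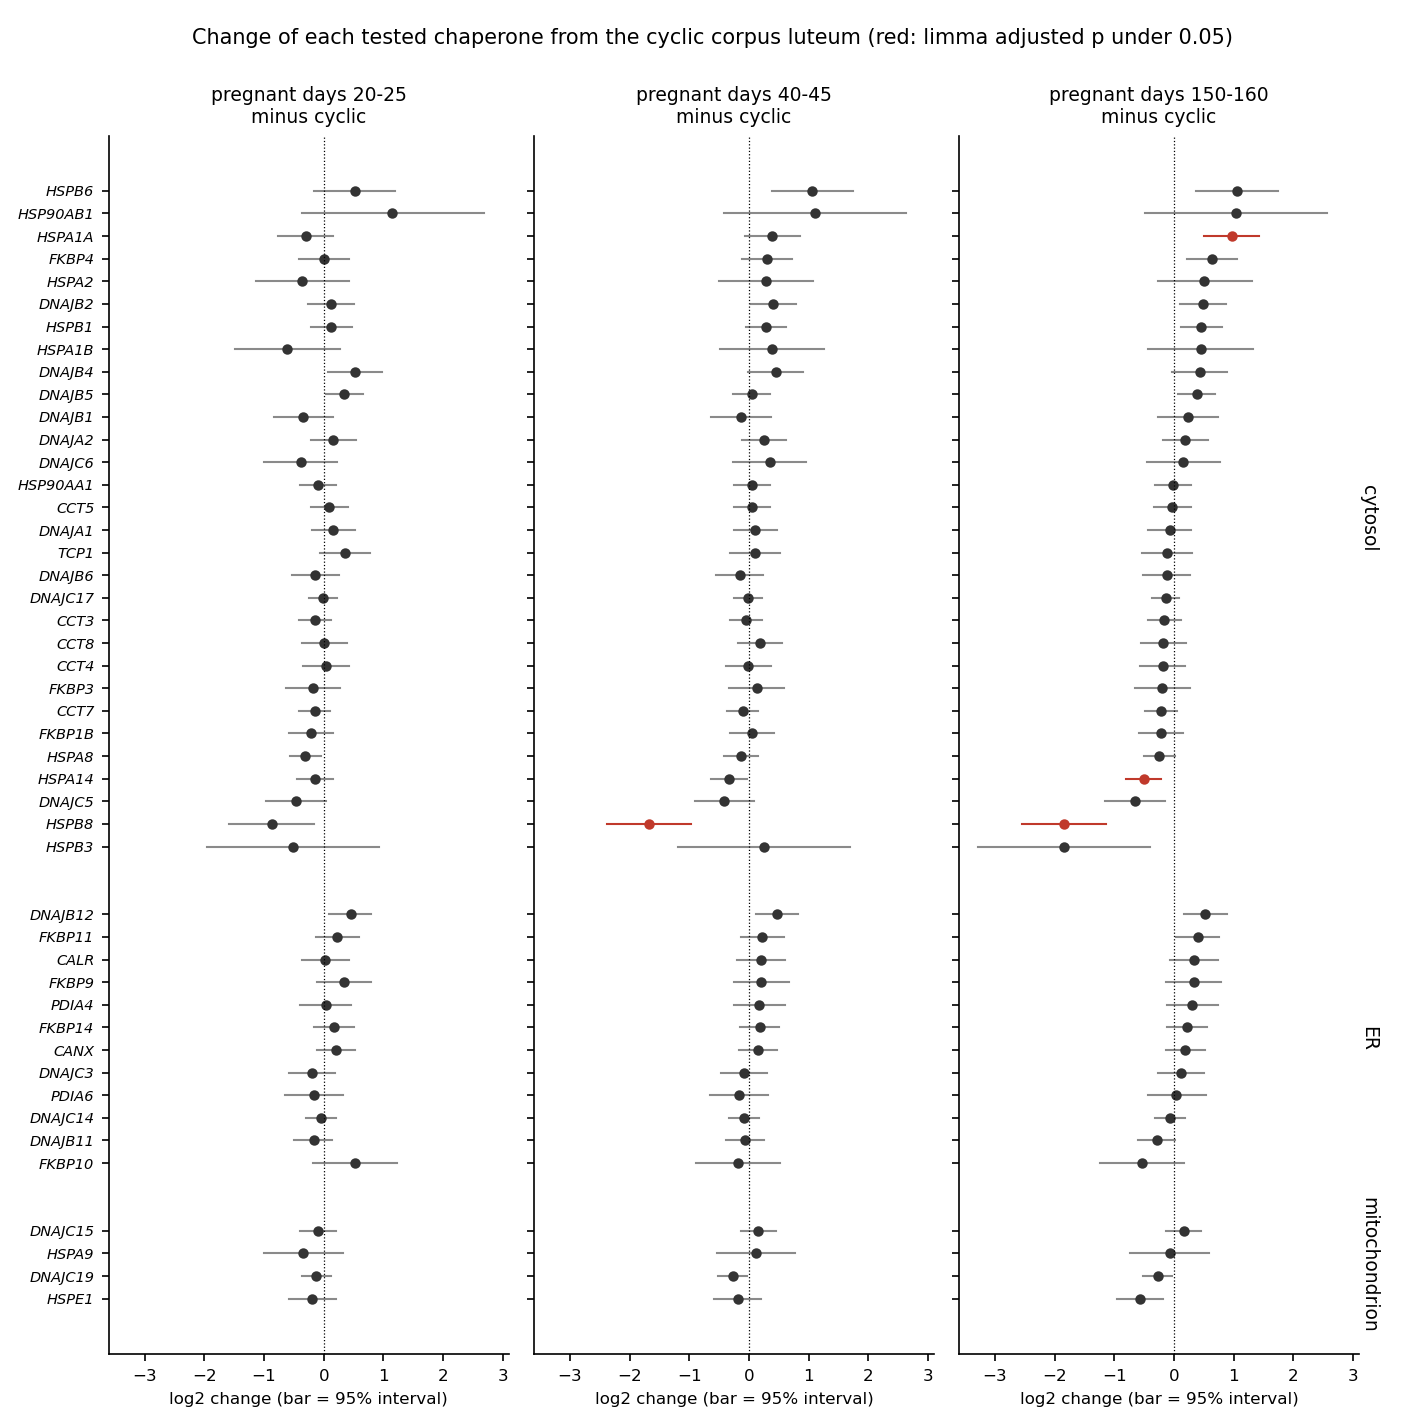
Log2 change of each of the 46 tested chaperones from the cyclic group (x axis, log2 units) at 3 stages of pregnancy, with the 95% interval of limma as a bar and genes grouped by compartment; red marks an adjusted p under 0.05. Red appears for HSPB8 at days 40-45 and for HSPA1A, HSPA14 and HSPB8 at days 150-160, and most other points lie within 0.5 of 0.

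The HSP70 family held 1 member that rose and 1 that fell. HSPA1A encodes the heat-inducible HSP70 of the cytosol. Cyclic cows read 2.10, 2.65, 3.07 and 2.06 for HSPA1A, a mean of 2.47 ± 0.48 (SD, n = 4). At days 20-25 its values were 2.07, 2.04, 2.25 and 2.31 (2.17 ± 0.13, n = 4). No gland of this group exceeded 2.31, a level that 2 of the 4 cyclic cows passed. The days 40-45 glands gave 3.06, 3.05, 2.38 and 2.95 (2.86 ± 0.32, n = 4). By days 150-160 it stood at 3.34, 3.69, 3.40 and 3.33 (3.44 ± 0.17, n = 4). Every gland of days 150-160 was thus above every gland of the other 3 groups. The rise from cyclic was 0.97 on the log2 scale (95% interval 0.51 to 1.43), a 1.96-fold higher signal, with a limma adjusted p of 0.014. From days 20-25 to days 150-160 HSPA1A rose by 1.27 (0.82 to 1.73), or 2.42-fold, with a limma adjusted p of 0.0075, and it was the only chaperone to pass there, where 1.57% of all probes passed and 0.637% were higher. HSPA1A was also called among 46 by the moderated F test over the 4 groups (limma adjusted p = 0.0148), as was HSPB8 (0.0149), where 3.85% of all probes were called. Both HSPA1A calls held when any of the 16 cows was left out, with limma adjusted p up to 0.0447 against cyclic and 0.0295 against days 20-25. Against cyclic, the limma call was lost when the fit held only the groups compared (adjusted p = 0.0765). Within slide 1 and slide 2, each with 2 cows a group, the change from cyclic was 1.14 and 0.80, and it passed on neither (limma adjusted p = 0.0631 and 0.471).

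The neighbouring HSPA1B, a near-identical copy of the gene, did not pass. The cyclic glands showed -0.07, 0.23, 1.49 and 1.60 (0.81 ± 0.86, n = 4), and those of days 20-25 -0.30, 0.51, 1.21 and -0.59 (0.21 ± 0.82, n = 4). Later glands read 1.28, 1.31, 0.73 and 1.48 at days 40-45 (1.20 ± 0.33, n = 4) and 0.85, 1.36, 1.43 and 1.41 at days 150-160 (1.26 ± 0.28, n = 4). The early groups were wide and the later ones narrow, and all 4 groups overlapped. In cyclic cows the 2 on slide 2 were the high pair for HSPA1B. The change to days 150-160 was 0.45 (limma adjusted p = 0.558), with a 95% interval from -0.43 to 1.32 that holds the size seen for HSPA1A. The probes for the 2 copies read different stretches. RefSeq files the HSPA1B probe's accession under HSPA1A, and transcripts of near-identical copies may reach either probe. A 30-base stretch of each HSP70-family probe a call or its closest copy rests on is shown from the array's own design, 5′ to 3′, with the letters AATAAA of a polyadenylation signal in capitals where present.
HSPA1A, bases 31 to 60 of the probe: tttctgtttacttccaagtaAATAAActca
HSPA1B, bases 1 to 30: gccaatggcatcctgaacgtcacggccacg
HSPA14, bases 31 to 60: ggtaaagtaacttgaaggtgggAATAAAat
The longest run of bases that the whole 60-base probes of HSPA1A and HSPA1B share is 5. AATAAA, searched on the printed strand only, occurs in 5 of 48 chaperone probes (10.4%) and in 11.3% of all 15208 probes. A match is a description of the letters and does not show where a transcript ends.

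HSPA14, an HSP70 relative that works at the ribosome, was the other family member to pass. The cyclic glands lay close together at -3.13, -3.23, -3.20 and -3.12 (-3.17 ± 0.05, n = 4). Days 20-25 glands read -3.46, -3.35, -3.55 and -2.90 (-3.31 ± 0.29, n = 4), those of days 40-45 -3.46, -3.48, -3.66 and -3.40 (-3.50 ± 0.11, n = 4), and those of days 150-160 -3.85, -3.54, -3.75 and -3.56 (-3.68 ± 0.15, n = 4). No gland of days 40-45 or 150-160 reached the cyclic range. The change to days 150-160 was -0.50 (-0.80 to -0.21), 1.42-fold lower, with a limma adjusted p of 0.0401. This call was fragile: it held in 5 of 16 fits with 1 cow left out, the highest limma adjusted p being 0.0946. It was lost without any single cow of the cyclic or days 150-160 group, without cow 2 of days 20-25 and without cow 1 or cow 2 of days 40-45.

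Other HSP70 members did not pass. HSPA8, the constitutive HSP70, read 5.65, 5.60, 5.75 and 5.66 in cyclic glands (5.67 ± 0.06, n = 4). At days 20-25 it read 5.40, 5.43, 5.38 and 5.23 (5.36 ± 0.09, n = 4), and at days 150-160 5.36, 5.34, 5.53 and 5.46 (5.42 ± 0.09, n = 4). Neither group overlapped the cyclic cows, the changes being -0.31 (limma adjusted p = 0.282) and -0.25 (0.242). At days 40-45, where the spot of cow 1 was set aside as non-uniform and 3 cows remained, HSPA8 read 5.59, 5.26 and 5.76 (5.53 ± 0.26, n = 3). HSPA2, an HSP70 best known from testis, ran from -1.43 to 0.37 in cyclic and from -0.73 to 0.56 at days 150-160, a change of 0.51 (limma adjusted p = 0.436). Both cyclic cows on slide 2 were above both on slide 1 for this gene. The share of all members or of all probes with such a split was not counted.

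**Figure D2:**
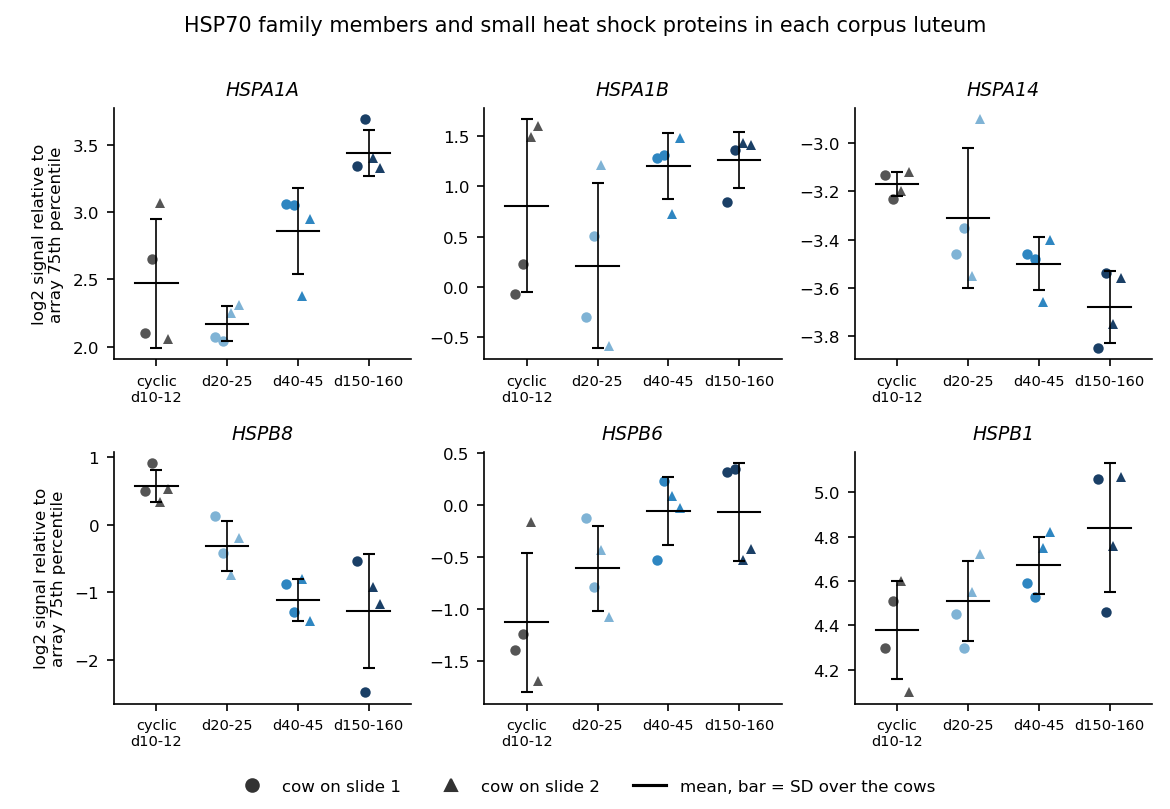
Log2 signal relative to the array's 75th percentile (y axis) for 3 HSP70 family genes and 3 small heat shock proteins in the 4 groups (x axis, day of cycle or gestation); each point is a cow, circles and triangles are slides 1 and 2, and the line and bar are mean and SD of 4 cows. HSPA1A is highest in all 4 glands of days 150-160, while HSPB8 is highest in all 4 cyclic glands.

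The J proteins, which deliver clients to HSP70, gave no call among 10 tested in the cytosol, with a median change of 0.17 at days 150-160. DNAJB1, the usual partner of inducible HSP70, read 1.21 ± 0.31 in cyclic, 0.88 ± 0.35, 1.08 ± 0.34 and 1.45 ± 0.36 (SD, n = 4 each) through the 3 stages of pregnancy. Its change at days 150-160 was 0.24 (-0.26 to 0.73; limma adjusted p = 0.593). Across cows, after each group's mean was removed, HSPA1A and DNAJB1 had a Pearson r of 0.09 (n = 16, permutation p = 0.764) and a Spearman rho of 0.01 (p = 0.962). Without the 2 cows farthest from the median of HSPA1A the r was -0.18, and within slides 1 and 2 it was -0.51 and 0.22. DNAJA1, the other main J partner of the cytosol, changed by 0.16, 0.11 and -0.07 (limma adjusted p from 0.681 to 0.845). DNAJB2, a J protein that hands clients to the proteasome, read 1.97, 1.78, 2.75 and 2.46 in cyclic and 2.59, 2.66, 2.87 and 2.77 at days 150-160. The cyclic cows fell apart by slide, and the change of 0.48 (0.10 to 0.87) had a limma adjusted p of 0.115. DNAJB4, another HSP70 partner, changed by 0.53, 0.45 and 0.43 at the 3 stages (limma adjusted p = 0.29, 0.348 and 0.247). DNAJC5, which guards vesicle fusion proteins, gave the lowest value among J proteins at days 150-160, -0.65 (limma adjusted p = 0.105). DNAJC6, which removes clathrin coats, changed by 0.73 between days 20-25 and 40-45 (limma adjusted p = 0.513), and DNAJB5 by -0.29 (0.624). The remaining cytosolic J proteins were close to cyclic at days 150-160, with changes of 0.19 for DNAJA2, -0.12 for DNAJB6, which blocks aggregation, and -0.14 for DNAJC17 (limma adjusted p = 0.556, 0.748 and 0.477). The second spot of DNAJA2 gave 0.04.

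HSP90 and its FKBP partners were tested through 2 HSP90 genes and FKBP4. HSP90AA1, the inducible HSP90, read 5.10, 4.88 and 5.08 in 3 cyclic cows, the spot of cow 1 having been set aside, and 4.70, 5.12, 5.10 and 5.12 at days 150-160. Its change was -0.01 with a narrow 95% interval of -0.31 to 0.29 (limma adjusted p = 0.976). HSP90AB1, the constitutive form, read 0.42, 4.77, 4.83 and 4.90 in cyclic cows. Cow 1 stood alone, since the other 15 cows lay between 4.61 and 5.21. The changes of HSP90AB1 of 1.15, 1.11 and 1.04 at the 3 stages (limma adjusted p = 0.473, 0.524 and 0.415) became 0.05, 0.01 and -0.06 without that cow (limma adjusted p = 0.896, 0.989 and 0.854). FKBP4, an immunophilin that joins HSP90 on the progesterone receptor, read 1.59, 1.69, 2.39 and 2.32 in cyclic and 2.16, 2.84, 2.90 and 2.65 at days 150-160. These ranges overlapped through the slide 2 cyclic cows and cow 1 of pregnancy. The change of FKBP4 was 0.64 (0.22 to 1.06) with a limma adjusted p of 0.0607, just outside the threshold. With slide as a block it was called (0.0373), as it was with quantile normalization (0.0274). Of the alternatives run, 5 called this change and 23 did not. FKBP1B, which steadies calcium channels, changed by -0.21 at that stage (limma adjusted p = 0.499). FKBP3, a nuclear FKBP counted here with the cytosol, changed by -0.20 (limma adjusted p = 0.62).

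The small heat shock proteins moved in different directions. HSPB8, which works with BAG3 in clearing misfolded proteins, had the smallest limma adjusted p of the 46 against cyclic cows at days 40-45 and at days 150-160. It read 0.50, 0.91, 0.33 and 0.53 in cyclic cows (0.57 ± 0.24, n = 4) and 0.13, -0.42, -0.75 and -0.20 at days 20-25 (-0.31 ± 0.37, n = 4). Days 40-45 gave -0.88, -1.30, -0.81 and -1.43 (-1.11 ± 0.31, n = 4) and days 150-160 -0.53, -2.48, -0.92 and -1.18 (-1.28 ± 0.84, n = 4). Every pregnant gland was below every cyclic gland. Macrophage markers (6 tested) summed to 6.32 to 16.5 in cyclic glands and 3.2 to 11, 5.65 to 10.7 and 5.46 to 11.6 through pregnancy, ranges that overlap. Their median log2 change from cyclic was -0.96 at days 40-45 and -0.89 at days 150-160. CD68 was lower at both stages (-1.32 and -1.57; limma adjusted p = 0.0223 and 0.00277) and MRC1 at the later one (-1.03; 0.0217). Of all probes, 0.695% and 3.32% were lower at these stages. No other macrophage marker was called, and CD14 changed by 0.06 at days 150-160. Markers of other cells were called lower at both stages too. They were 2 of 5 granulocyte markers (CATHL1, -2.70 and -1.63, and CATHL4, -3.80 and -3.41) and 1 of 2 plasma and B cell markers (JCHAIN, -1.70 and -1.31). In each of these 2 lists, 1 marker had a positive change at both stages. The part of RNA from any of these cell types in the HSPB8 values was not tested. At days 20-25 the change of -0.87 (-1.58 to -0.17) did not pass (limma adjusted p = 0.257). HSPB8 was 3.19-fold lower at days 40-45, a change of -1.67 (-2.38 to -0.97; limma adjusted p = 0.0226), and 3.59-fold lower at days 150-160, a change of -1.84 (-2.55 to -1.14; 0.00412). The later call held in 16 of 16 fits with a cow left out, with a limma adjusted p up to 0.0136. At days 40-45 the call held in 11 of 16 such fits, and was lost without cow 2 or 4 of the cyclic group or cow 1, 2 or 4 of days 40-45 (limma adjusted p up to 0.0726). Within slides 1 and 2 the change to days 150-160 was -2.21 and -1.48, and neither passed with 2 cows a group (limma adjusted p = 0.112 and 0.148). Between stages of pregnancy HSPB8 did not pass, at -0.80 from days 20-25 to 40-45 (limma adjusted p = 0.525) and -0.17 from there to days 150-160 (0.943). In those comparisons none of the 46 chaperones passed, where 0.0335% and 0.0419% of all probes did.

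HSPB6, a small heat shock protein of smooth muscle, went the other way without passing. It read -1.40, -1.24, -0.16 and -1.69 in cyclic, -0.13, -0.79, -0.43 and -1.08 at days 20-25, -0.53, 0.23, 0.09 and -0.03 at days 40-45 and 0.32, 0.35, -0.53 and -0.42 at days 150-160. A single cyclic cow, cow 3, reached the range of the pregnant glands. The changes were 0.52, 1.06 and 1.06 (limma adjusted p = 0.473, 0.124 and 0.0582), and without cyclic cow 3 the later 2 became 1.39 and 1.38 and passed (0.0254 and 0.00913). Smooth muscle and pericyte markers summed to 12.2 to 20.6 in cyclic, 9.08 to 21.5 at days 20-25, 14.5 to 18.4 at days 40-45 and 10.5 to 30.6 at days 150-160, with all 5 above background on every array. At days 150-160, 1 of the 5 (MYL9) was called higher, where 4.66% of all probes were. The change was positive for 4 of the 5, and CNN1 changed by -0.05. Their part in the HSPB6 values was not tested. HSPB1, an actin-binding small heat shock protein, read 4.38 ± 0.22, 4.51 ± 0.18, 4.67 ± 0.13 and 4.84 ± 0.29 (SD, n = 4 each), and its change of 0.46 at days 150-160 did not pass (limma adjusted p = 0.0948). HSPB3, a muscle small heat shock protein, was well above background on 3, 4, 4 and 1 of the 4 arrays in the 4 groups, so its change of -1.85 at days 150-160 rests on 3 glands not well above background (limma adjusted p = 0.11). The probes of the pair with opposite signs carry these stretches.
HSPB8, bases 1 to 30: ctagtggtgttgtgtatatgggtgggacgt
HSPB6, bases 31 to 60: taggcccactcccccAATAAAtgtgctaga

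The chaperonin CCT varied little between groups. Its 6 measured subunits (TCP1, CCT3, CCT4, CCT5, CCT7 and CCT8) had median changes of 0.02, 0.02 and -0.17 at the 3 stages, and none was called. At days 150-160 all 6 changes were negative, between -0.21 and -0.03, and the smallest limma adjusted p was 0.318. CCT3 illustrated the spread: 3.78, 3.86, 3.77 and 3.88 in cyclic and 3.40, 3.71, 3.70 and 3.85 at days 150-160. The 95% interval of its change, -0.43 to 0.11, leaves out a change of 0.5 in either direction. For CCT5 the interval was -0.33 to 0.28, and for TCP1 -0.53 to 0.31. Within groups the SD was 0.14 for CCT3, 0.14 for CCT7 and 0.18 for CCT5, and 0.24 for CCT8, 0.25 for CCT4 and 0.28 for TCP1. The median was 0.25 over the tested chaperones and 0.31 over all tested probes.

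In the ER, 9 of 12 members had a positive change at days 150-160 and none passed. With the ER chaperones under other names it was 12 of 18, with a median of 0.21 beside 0.03 over all probes. The mean deviation of the 12 members from each gene's mean kept the slides apart in cyclic cows only. In cyclic cows it was -0.13 and -0.22 on slide 1, and 0.05 and -0.03 on slide 2. The slides overlapped in each pregnant group. At days 20-25 the mean deviation was -0.02 and -0.18 on slide 1, and -0.04 and 0.37 on slide 2. At days 40-45 it was -0.07 and 0.03 on slide 1, and -0.08 and 0.14 on slide 2. At days 150-160 it was -0.01 and 0.21 on slide 1, and -0.03 and 0.03 on slide 2. Calreticulin (CALR), a calcium-binding lectin chaperone, read 5.16, 5.16, 5.77 and 5.64 in cyclic and 5.65, 5.88, 5.63 and 5.94 at days 150-160. The 2 slide 2 cyclic cows already stood at the level of late pregnancy, and the change was 0.34 (limma adjusted p = 0.29). Calnexin (CANX), its membrane-bound relative, changed by 0.20, 0.15 and 0.19 at the 3 stages (limma adjusted p = 0.55, 0.732 and 0.488). Among disulfide isomerases, PDIA4 changed by 0.31 at days 150-160 (limma adjusted p = 0.372) and PDIA6 by 0.04 (0.934). The second spots of these genes gave 0.42 and 0.11. DNAJC3, the ER J protein that also restrains the kinase PERK, changed by 0.12 (limma adjusted p = 0.745), and DNAJB12, a J protein of the ER membrane, by 0.45, 0.47 and 0.52 (0.255, 0.186 and 0.068). DNAJB12 was above every cyclic cow in all 4 cows of days 40-45. The other ER J proteins, DNAJB11, a partner of the ER HSP70, and DNAJC14, changed by -0.29 and -0.07 at days 150-160 (limma adjusted p = 0.245 and 0.793). FKBP9, FKBP11 and FKBP14, prolyl isomerases of the ER, changed by 0.33, 0.40 and 0.22 (limma adjusted p = 0.389, 0.17 and 0.428). FKBP10, an FKBP that helps collagen fold, varied most within groups among the ER members (SD 0.50), at 1.61, 0.97, 1.12 and 2.53 at days 20-25 and 1.02, 0.28, 0.34 and 0.35 at days 150-160. Its change between those stages was -1.06 (limma adjusted p = 0.136), and 3 of 6 fibroblast and matrix markers, COL1A1, COL1A2 and COL3A1, were lower in the same comparison, with a list median of -1.07, beside 0.93% of all probes lower. Their part in the FKBP10 values was not tested.

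The array also held the 2 best known ER chaperones, filed under the older names GRP78 (HSPA5, the ER HSP70) and TRA1 (HSP90B1, the ER HSP90), which the naming rule does not reach. HSPA5 read 1.28, 1.54, 1.31 and 1.93 in cyclic, 1.47, 1.32, 1.41 and 1.79 at days 20-25, 1.84, 1.83, 1.46 and 1.66 at days 40-45 and 1.95, 2.51, 1.95 and 2.01 at days 150-160. All 4 late glands were above all 12 others for HSPA5. The change from cyclic was 0.59 (0.21 to 0.97) with a limma adjusted p of 0.0556, just outside the threshold. HSP90B1 read 4.85, 5.09, 5.06 and 5.36 in cyclic and 5.36, 5.60, 5.58 and 5.40 at days 150-160, a change of 0.39 (0.09 to 0.69; limma adjusted p = 0.105). At days 40-45 it read 5.33, 5.24 and 5.48 in the 3 cows whose spot was kept. PDIA3, the isomerase that works with calnexin and calreticulin (filed as GRP58), read 2.46, 2.41, 2.43 and 2.50 in cyclic and 2.73, 2.99, 2.59 and 2.61 at days 150-160. These ranges did not overlap, yet the change of 0.28 did not pass (limma adjusted p = 0.16). The other ER chaperones under other names did not rise at days 150-160. HSPA13, DNAJC18 and PDIA5 changed by -0.06, -0.22 and -0.30 (limma adjusted p = 0.907, 0.597 and 0.552), and DNAJC1 was not tested. Over the 6 tested ER genes of this kind, 3 changes were positive and 3 negative, with a median of 0.11. Of the 12 chaperones under other names, 10 were tested and none passed in a comparison with cyclic cows. Within groups HSPA5 and CALR had a Pearson r of 0.35 (n = 16, permutation p = 0.258) and a rho of 0.28 (p = 0.377). Without the 2 cows farthest from the median of HSPA5 the r was 0.24, and slides 1 and 2 gave 0.63 and 0.12. HSPA5 and PDIA4 had 0.26 (n = 16, permutation p = 0.396) and 0.28 (p = 0.336), with an r of 0.34 without those 2 cows and 0.09 and 0.14 within slides. HSPA5 and HSP90B1 had 0.31 (n = 15, permutation p = 0.347) and 0.42 (p = 0.176). For the last pair the r was -0.14 without the 2 farthest cows, and 0.94 and 0.14 within slides 1 and 2. HSPA8 and HSP90AA1 had an r of 0.20 (n = 14, permutation p = 0.42) and a rho of 0.19 (p = 0.534). This r was 0.46 without the 2 cows farthest from the median of HSPA8, and -0.15 (n = 6) and -0.10 (n = 8) within slides 1 and 2. Of 9 pairs listed, 5 were tested, since the others held HSPH1, HSPD1 or CCT2, which were not among the tested chaperones. Over the 5 pairs, the Benjamini-Hochberg adjusted permutation p was between 0.525 and 0.764 for r and between 0.628 and 0.962 for rho. No pair passed.

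**Figure D3:**
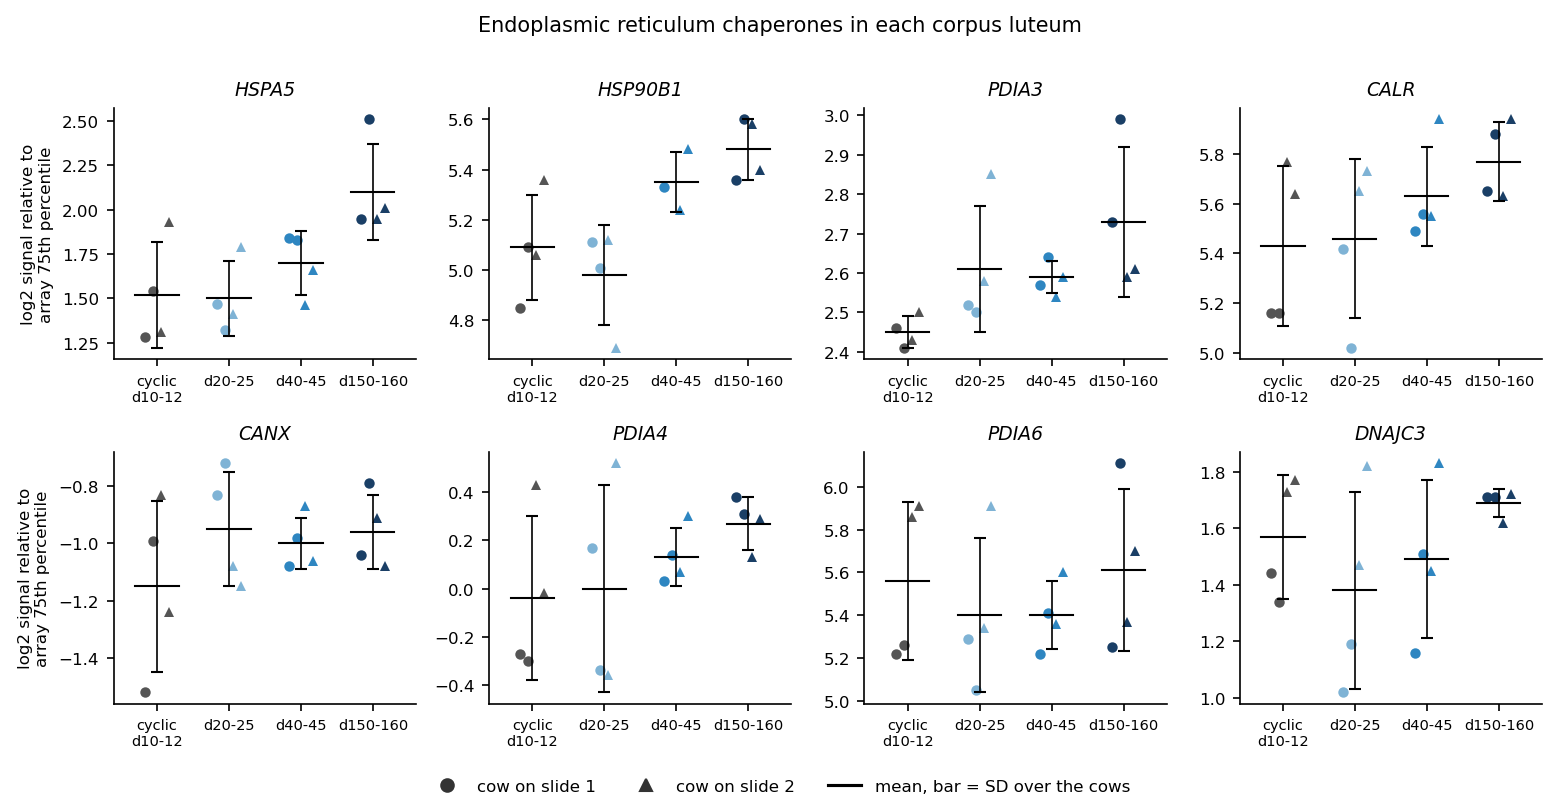
Log2 signal relative to the array's 75th percentile (y axis) of 8 ER chaperones in the 4 groups (x axis); each point is a cow, circles and triangles are slides 1 and 2, and the line and bar are mean and SD of 4 cows, or 3 for HSP90B1 at days 40-45. HSPA5 is higher in all 4 glands of days 150-160 than in the other 12, and PDIA6 overlaps across all groups.

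The mitochondrial members were HSPE1, HSPA9, DNAJC15 and DNAJC19. HSPE1, the HSP10 lid of the mitochondrial chaperonin, read 5.05, 4.54, 5.05 and 5.12 in cyclic and 3.98, 4.28, 4.32 and 4.90 at days 150-160. Cow 2 of the cyclic group and cow 4 of late pregnancy made these ranges overlap. The change was -0.57 (-0.96 to -0.18; limma adjusted p = 0.0724). Quantile normalization moved the limma adjusted p of HSPE1 to 0.047. Of the alternatives run, 4 called this change and 24 did not. HSPA9, the mitochondrial HSP70, changed by -0.34, 0.12 and -0.07 (limma adjusted p = 0.627, 0.922 and 0.921), with cow 4 of days 20-25 alone at -2.11. DNAJC15 and DNAJC19, J proteins of the import motor, changed by 0.17 and -0.27 at days 150-160 (limma adjusted p = 0.512 and 0.164).

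**Figure D4:**
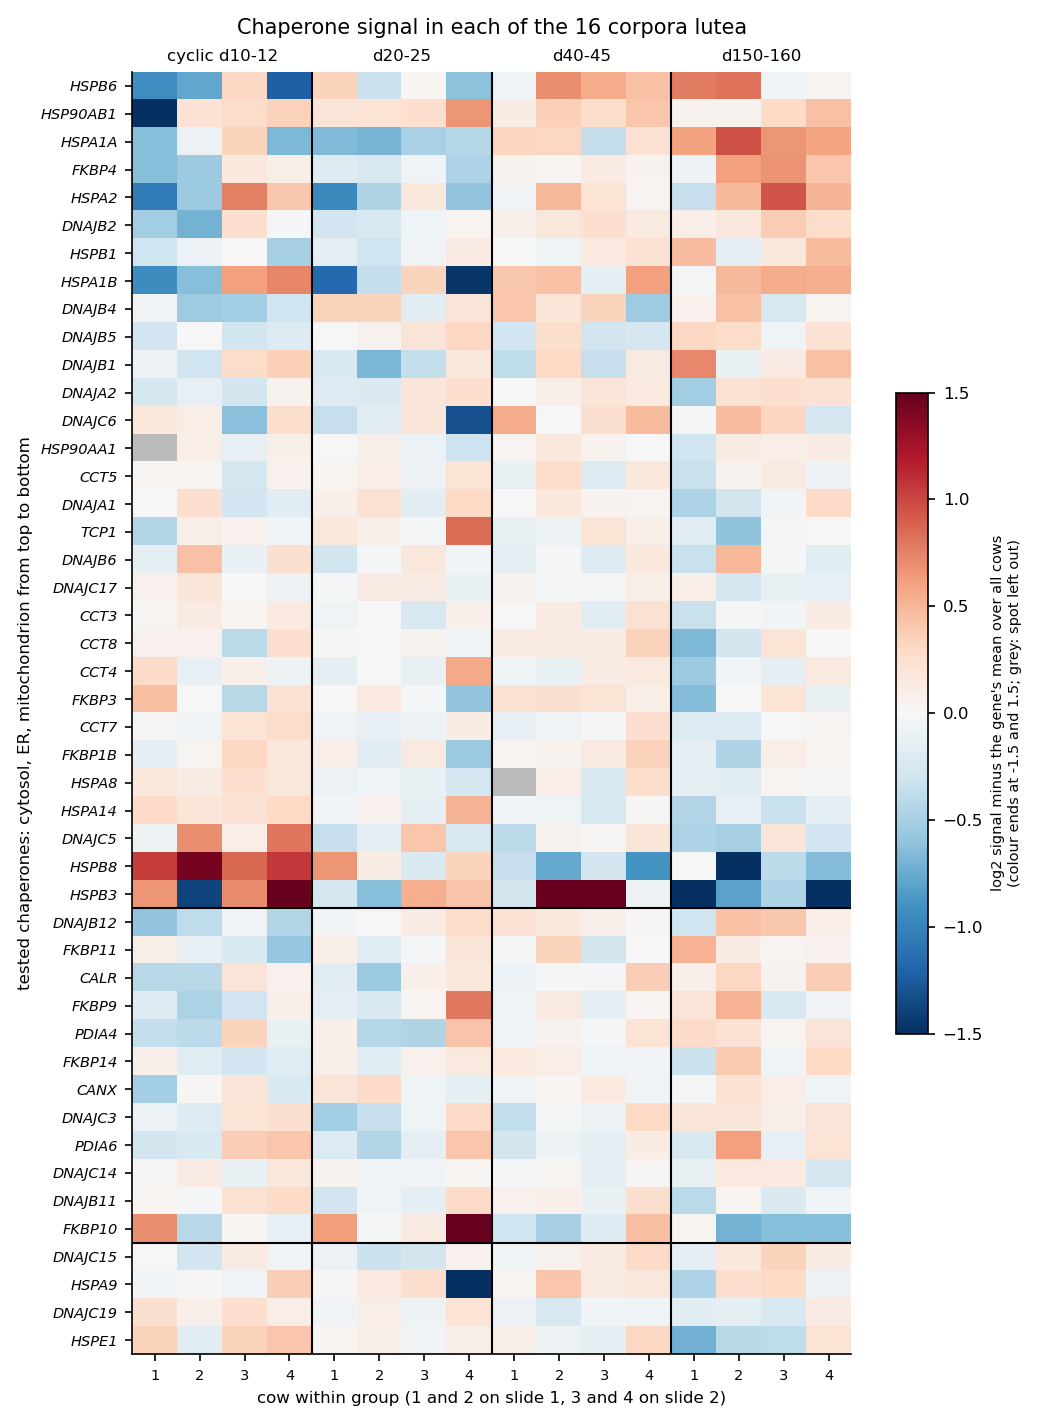
Log2 signal of the 46 tested chaperones (rows, by compartment) in each of the 16 cows (columns, by group), as the difference from the gene's mean over all cows; grey cells are the spots set aside for HSP90AA1 and HSPA8. HSPB8 is red in the 4 cyclic columns, HSPA1A is red in the 4 columns of days 150-160, and single dark cells mark HSP90AB1 in cyclic cow 1 and HSPA9 in cow 4 of days 20-25.

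Genes that work beside the chaperones were read from lists. Of 9 tested genes of the unfolded protein response outside these families, none passed at any stage, with a median change of 0.13 at days 150-160. The nearest were P4HB, the beta subunit of collagen prolyl hydroxylase and a disulfide isomerase (0.40, limma adjusted p = 0.13), and DDIT3, the stress factor CHOP (0.40, 0.141). Heat shock factors and cytosolic co-chaperones gave 0 of 15 at every stage, with medians of -0.08, 0.11 and 0.02. CRYAB, a small heat shock protein by structure, changed by 1.19 at days 150-160 (limma adjusted p = 0.0631) and BAG5, an HSP70 exchange factor, by 0.68 (0.0916). Mitochondrial quality control genes gave 0 of 6, with TRAP1, the mitochondrial HSP90, at -0.47 (limma adjusted p = 0.129) and the protease subunit CLPP at -0.32 (0.165). Prefoldin and tubulin-folding genes, which feed CCT or follow it, gave 0 of 13. Of 9 genes induced through steroid receptors, whose receptors HSP90 and FKBP4 hold, 1 was higher at days 40-45 and 2 at days 150-160, beside 0.536% and 4.66% of all probes. ZBTB16, a zinc finger repressor, rose by 2.73 and 2.90 (limma adjusted p = 0.00563 and 0.00112), and DUSP1, a MAP kinase phosphatase, rose by 1.86 at days 150-160 (0.0139).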

How the data were processed

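Values came from the scanner files of 16 Agilent 1-colour arrays, deposited as processed signal intensity per spot after Agilent Feature Extraction 9.5, per the submitters' processing notes. The deposited value table, on a log2 scale, differed from log2 processed signal minus 1 constant per array by at most 0.00461. Its column medians lay between -3.18 and -2.98. Control spots (536 of 15744) were removed, 220 spots with outlier flags were set missing, log2 signal was centred on each array's 75th percentile, and 15208 probes remained, of which 11941 were tested. A probe was tested if well above background and unflagged on at least 3 of 4 arrays of a group. Groups were compared with limma 3.58.1 in R 4.3.3 (lmFit and eBayes, all 16 arrays, group as the only term, two-sided, Benjamini-Hochberg over all tested probes, called at adjusted p under 0.05). P-values set a group difference against the spread among cows of a group, as moderated by limma over all tested probes. With 1 array per cow and slide not in the model, this spread also holds differences between slides and hybridisations. Compartment and pathway lists were described by counts and medians.

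Pairs of genes were compared by correlation of deviations from group means, two-sided, with 100000 permutations of cows within groups. The number of arrays limits the precision. Symbols come from the deposited annotation, updated through RefSeq. In each comparison the text names every member called, the 3 largest rises and 3 largest falls, a fixed set of well known chaperones, and of each pathway list the called genes or the 2 nearest. Other members, the chaperones filed under other names among them, were named after their values were seen. Members, lists and alternatives were chosen with earlier results of these data known. Alternatives changed background correction, normalization, value table, dim-probe filter, slide and replicate blocks, probe choice and cows. The fit was tested on simulated data. Replicate numbers did not meet the criterion for pairing.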

Additional observations from a re-analysis of the deposited data

Results flagged for a closer look

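Among 118 groups with 4 values screened (30 named genes), 14 held a cow far from its group by Dixon's criterion, where chance flags about 1 in 20. The widest gap was HSP90AB1 in cyclic cow 1 at 0.42, with the nearest cow at 4.77, and this cow sets the changes of that gene from cyclic. HSPA9 stood apart in cow 4 of days 20-25 at -2.11 and in cyclic cow 4 at -0.25, and HSP90AB1 in cow 4 of days 20-25 at 5.21. In cyclic glands, CCT5 was low in cow 3 (0.07) and HSPE1 in cow 2 (4.54). At days 40-45, cow 4 was high for CALR (5.94) and CCT8 (3.38), cow 2 for DNAJB5 (-5.05), and cow 3 was low for HSPA1A (2.38). At days 150-160, cow 1 was high for FKBP10 (1.02) and low for HSPA1B (0.85) and HSP90AA1 (4.70), and cow 3 was low for DNAJC3 (1.62).

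The change of HSPA1A from cyclic differed between days 150-160 and days 20-25 by 1.27 on the log2 scale (limma adjusted p = 0.0075). This is the direct contrast of those stages, higher in 4 of 4 late cows.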

How the results depend on the processing

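No result changed sign while called. Counts of members called at days 20-25 and between neighbouring stages of pregnancy were 0 under every alternative run. Within slide 1 and within slide 2, with 2 cows a group and fewer residual degrees of freedom, 0 members passed in each comparison and in the F test. At days 150-160 against cyclic, 5 passed with slide as a block (DNAJB2, FKBP4, HSPA14, HSPA1A and HSPB8) and 1 with only the groups compared (HSPB8). Within slides the median change at that stage was -0.19 (slide 1) and 0.09 (slide 2) in the cytosol and -0.02 (slide 2) in the ER.

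With 1 cow left out, 0 to 2 members passed at days 40-45, 2 to 6 at days 150-160, 1 to 2 at days 150-160 against days 20-25, and 2 to 3 in the F test. Without cyclic cow 3 the 2 at days 40-45 were HSPB6 and HSPB8, and the 6 at days 150-160 were DNAJB12, DNAJB2, FKBP4, HSPA1A, HSPB6 and HSPB8. Without cow 1 of days 150-160, FKBP4 joined HSPA1A against days 20-25.

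HSPA14 also lost its call under normexp, quantile normalization, median centring and no dim-probe filter (limma adjusted p = 0.124, 0.0582, 0.066 and 0.0561). The cause was not tested.

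With a replicate block, 5 members passed at days 150-160 (FKBP4, HSPA14, HSPA1A, HSPB8 and HSPE1) in place of 3. The criterion for pairing, every same-number correlation over 0.1, was not met: 9 of 24 were, although all 24 were positive (0.001 to 0.291). In 27 of 48 matches a cow correlated best with its own number, where an even choice among the 4 cows of a group gives 12. Same-numbered cows share a slide, which an even choice among 4 cows does not allow for. The median correlation was 0.082 within and -0.092 between slides. Within a slide it was 0.09 for cows of the same number and 0.045 for cows of different numbers. Whether the numbers mark a pairing was not settled.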
